A study of Arabidopsis thaliana with 4 samples.

Results

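RALF and CLE genes encode secreted signalling peptides of plants, and their transcripts were followed over 4 Affymetrix oligonucleotide arrays of Arabidopsis thaliana seedlings. The members are the probe sets that name 1 gene whose platform symbol starts with RALF, or is CLE followed by a number, at any signal level. There were 17 such probe sets among 22810, 11 of RALF genes and 6 of CLE genes, and each of the 17 genes had 1 probe set. The TAIR10.1 gene table lists 34 RALF and 30 CLE genes by the same symbols, and the others, CLE1 and RALFL4 among them, were not analysed here.

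Whole seedlings of the Col-0 accession were collected at 2 weeks after being grown untreated on agar plates (3% sucrose, 22 °C, days of 16 h light and 8 h dark). The sample titles give 2 arrays of wild type and 2 of Col-0 plants overexpressing At1g54160, the gene of NFYA5, a subunit of a CCAAT-binding transcription factor complex. The design text of the series names the second group as an nfya5 mutant instead. The titles are followed here, and the level of NFYA5 was not analysed here. Whether a difference from wild type below goes with more or with less NFYA5 rests on that label. The promoter of the transgene and the number of independent lines are not given in the sources used here.

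RALF peptides are cut from larger precursors, raise the pH of the cell wall space, and are bound by receptor kinases of the FERONIA family together with LORELEI-like membrane-anchored partners and leucine-rich repeat extensins of the wall. CLE peptides are short stretches from the end of their precursors that bind leucine-rich repeat receptor kinases. They are known for setting the balance between stem cells and differentiating cells in shoot and root tips and in the vascular cambium.

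The values are MAS5 signals in arbitrary units, scaled by the authors to a target of 500 on each array, and the median signal was between 181.4 and 194.1. The log2 signals of tested probe sets correlated at 0.989 and 0.988 within the groups and at 0.979 to 0.985 across them. The markers of green tissue (RCA, LHCB4.1 and LHCB4.2) and of root (PYK10, EXP7 and EXPA18) were all tested, with 0 of 6 past an adjusted p of 0.05 in limma's test and 0 at an unadjusted p of 0.05, and their log2 fold changes lay between -0.37 for EXPA18 and 0.11. EXPA18 came nearest to that level (limma, unadjusted p = 0.053), while the other root markers, PYK10 and EXP7, were both at 0.11. The pollen markers had 0 of 4 members with a listed probe set. The 3 probe sets of the bacterial TrpnX control lay between 0.7 and 17.4 over the 4 arrays, and those of the bacterial bioB control between 94.7 and 288.7. Precision is limited throughout by the number of arrays.

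Of the 17 genes, 7 reached a mean signal of 100, the level used here for a transcript that could be tested. They were RALFL22, RALFL24, RALFL31, RALFL32, RALFL33, RALFL34 and CLE41. The share was 41.2%, against 55.5% of all probe sets naming 1 gene. The 7 genes stood well clear of that level, since their lowest signal on any array was 330.1 and their lowest mean was 475 (CLE41). The highest mean among the other 10 genes was 78.9 (CLE44). Among those 10 genes, RALFL18, RALFL25, RALFL26 and RALFL28 had signals from 1.4 to 23.5, close to the range of the TrpnX control. A low signal does not show that a gene is silent in seedlings, because a transcript held in few cells is diluted in whole-plant RNA.

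**Figure D1:**
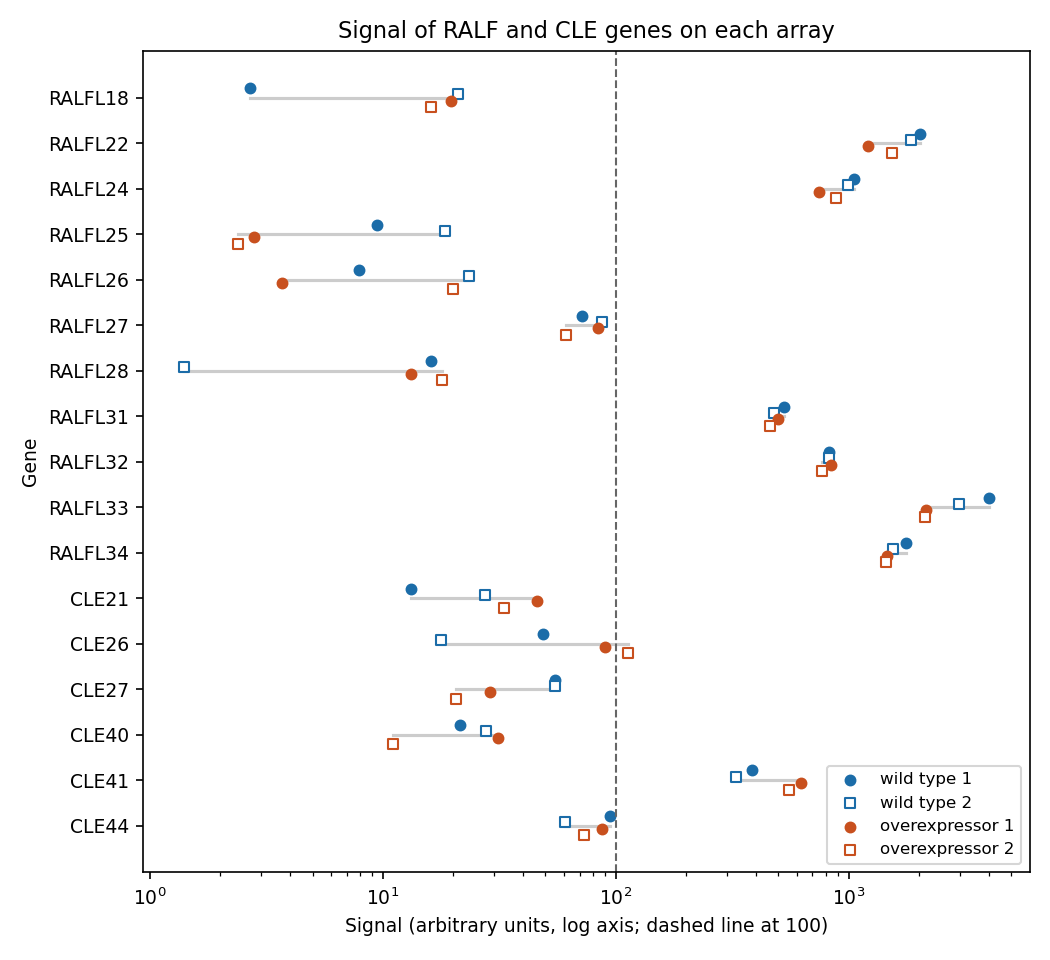
Signal of each of the 17 genes (rows) on each of the 4 arrays, on a log axis in arbitrary units. Blue marks wild type, orange the overexpressor arrays, filled circles replicate 1 and open squares replicate 2, and marks are set apart vertically for visibility. The dashed line is the mean signal of 100 needed for a test, with 7 genes to its right, from 330.1 upwards, and 10 genes whose means lie to its left.

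Between the groups, RALFL33 was 1.61-fold lower and CLE41 was 1.57-fold higher in the overexpressor arrays, on the signal + 50 scale, and these were the 2 of 7 tested members to pass limma's test. RALFL22, RALFL24 and RALFL34 were also lower in both overexpressor arrays than in either wild type array, but did not pass. RALFL31 and RALFL32 had overlapping groups. The 2 calls stand beside 1.29% of all 13961 tested probe sets that passed, 0.53% as higher and 0.759% as lower. The groups did not overlap for 5 of the 7, 4 lower and 1 higher, against 48.1% of all tested probe sets, 22% lower and 26.1% higher. All 6 tested RALF genes had a log2 fold change below 0, with a median of -0.25, and 46.8% of all tested probe sets lay below 0. Those of RALFL31 (-0.06) and RALFL32 (-0.04) were small and fell on both sides of 0 with an array left out. The RALF genes share the same arrays, so their signs are not independent observations. The median of the 7 tested members was -0.19, against 0.02 over all tested probe sets. It was -0.10 without wild type replicate 1 and -0.28 without wild type replicate 2. Neither RALFL33 nor CLE41 passed with a constant variance prior in limma (adjusted p = 0.14 and 0.12) or with no filter on low signals (adjusted p = 0.24 and 0.23).

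RALFL33 (AT4G15800) encodes a peptide known to bind FERONIA and to dampen signalling by immune receptors. Its signal was 4028 and 2995 in wild type replicates 1 and 2, and 2146 and 2132 on overexpressor replicates 1 and 2. Both wild type arrays were thus above both overexpressor arrays, and the wild type arrays lay much further apart than the overexpressor arrays. The means were 3511 ± 731 for wild type and 2139 ± 9.97 for the overexpressor arrays (SD, n = 2). The log2 fold change was -0.69 ± 0.13 (SE, limma, adjusted p = 0.031), with a 95% interval from -0.96 to -0.41. The SE from limma draws on the spread of other probe sets too. Here it is narrower than RALFL33's own replicates would give, and so is the interval. Of all tested probe sets, 0.308% had a log2 fold change this low or lower. Without wild type replicate 1, the array with the highest signal, the log2 fold change was -0.48 and no longer passed. Over all alternatives the adjusted p in limma ran from 2.0e-09, with a block for the replicate number, to 0.24 with no filter on low signals. The block leaves little information on each gene's own spread, so that lowest value rests mostly on limma's variance prior. In wild type replicate 1 the 3′ to 5′ signal ratio of the GAPDH control, a sign of RNA quality, was 2.01 against 1.78 to 1.80 on the other 3 arrays. The ratio of an actin control was 2.68 there, 2.39 in wild type replicate 2, and 2.54 and 2.24 on overexpressor replicates 1 and 2. The part of RNA quality in the result was not tested.

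CLE41 (AT3G24770) encodes the peptide TDIF, which is made in phloem, is bound by the receptor PXY in the cambium, and is known to hold back xylem differentiation and to promote division of cambial cells. Its signal was 385.5 and 330.1 in wild type, and 627 and 556 on the overexpressor arrays, in the order of the replicates. The groups did not overlap, and the replicates of each group lay close together. The mean rose from 358 ± 39.2 to 592 ± 50.2 (SD, n = 2). The log2 fold change was 0.65 ± 0.12 (SE, limma, adjusted p = 0.035), with a 95% interval from 0.38 to 0.93, and 0.645% of tested probe sets had one this high or higher. The call was lost without wild type replicate 2 (log2 fold change 0.56) or without overexpressor replicate 1 (0.57). Over all alternatives the adjusted p in limma ran from 6.0e-05, again with a block for the replicate number, to 0.23 with no filter on low signals. In whole seedlings, a change in the number of cells that make a transcript and a change in its amount per cell cannot be told apart.

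**Figure D2:**
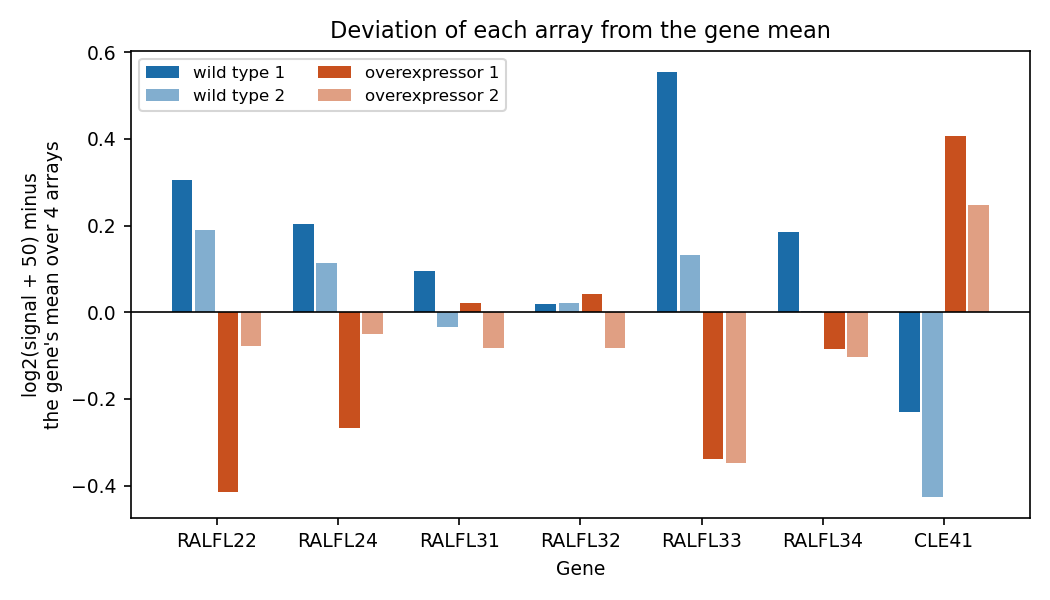
log2(signal + 50) of each array minus the gene's mean over the 4 arrays, for the 7 tested genes. Blue bars are wild type and orange bars the overexpressor arrays, with replicate 2 in the paler shade. RALFL33 and CLE41 deviate in opposite directions, and wild type replicate 1 has the highest bar for 5 of the 7 genes.

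CLE44 (AT4G13195) encodes the same TDIF peptide as CLE41 from another locus. Its signal was 94.3 and 60.9 in wild type and 87.2 and 73.0 on the overexpressor arrays. The groups overlapped, the mean was below the level needed for a test, and the log2 fold change with no filter on low signals was 0.04 ± 0.20 (SE). Whether CLE41 and CLE44 differed in their response was not tested.

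RALFL22 (AT3G05490) encodes a peptide that is known to act with FERONIA and the leucine-rich repeat extensins of the cell wall. Its signal was 2021 and 1863 in wild type and 1209 and 1538 on the overexpressor arrays. The groups did not overlap, and overexpressor replicate 1 was the lowest array. The log2 fold change of -0.49 ± 0.12 (SE from limma, n = 2) did not pass (limma, adjusted p = 0.074). Its SE, too, is narrower than the gene's own replicates would give. Without overexpressor replicate 2 it was -0.66 and passed (adjusted p = 0.0016), whereas without overexpressor replicate 1 it was -0.33 (adjusted p = 0.30).

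RALFL24 (AT3G23805), a further RALF gene, was at 1059 and 991.3 in wild type, and at 750.4 and 880.2 on the overexpressor arrays. Here too overexpressor replicate 1 was the lowest array and the groups did not overlap. The log2 fold change was -0.32 ± 0.11 (limma, adjusted p = 0.19). RALFL34 (AT5G67070) encodes a peptide that takes part in lateral root initiation and is known as a ligand of the receptor kinase THESEUS1. Its signals were 1770 and 1555 in wild type and 1461 and 1442 on the overexpressor arrays. These groups did not overlap either, but wild type replicate 2 was near the overexpressor arrays, and the log2 fold change of -0.19 ± 0.10 did not pass (limma, adjusted p = 0.38).

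RALFL31 (AT4G13950) and RALFL32 (AT4G14010) lie on chromosome 4 with 10 protein-coding genes between them in the TAIR10.1 gene table. RALFL31 was at 527.7 and 478.4 in wild type, and at 499.3 and 461 on the overexpressor arrays. RALFL32 had 827.3 and 828 in wild type and 841.6 and 767.6 on the overexpressor arrays. The groups overlapped in both genes, and the highest signal was 1.15 times the lowest for RALFL31 and 1.10 times for RALFL32. The log2 fold change was -0.06 for RALFL31, with a 95% interval from -0.32 to 0.20. For RALFL32 it was -0.04, with an interval from -0.27 to 0.19. Each interval thus leaves room for a fall of the size seen in RALFL34, but not for one of the size seen in RALFL33.

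**Figure D3:**
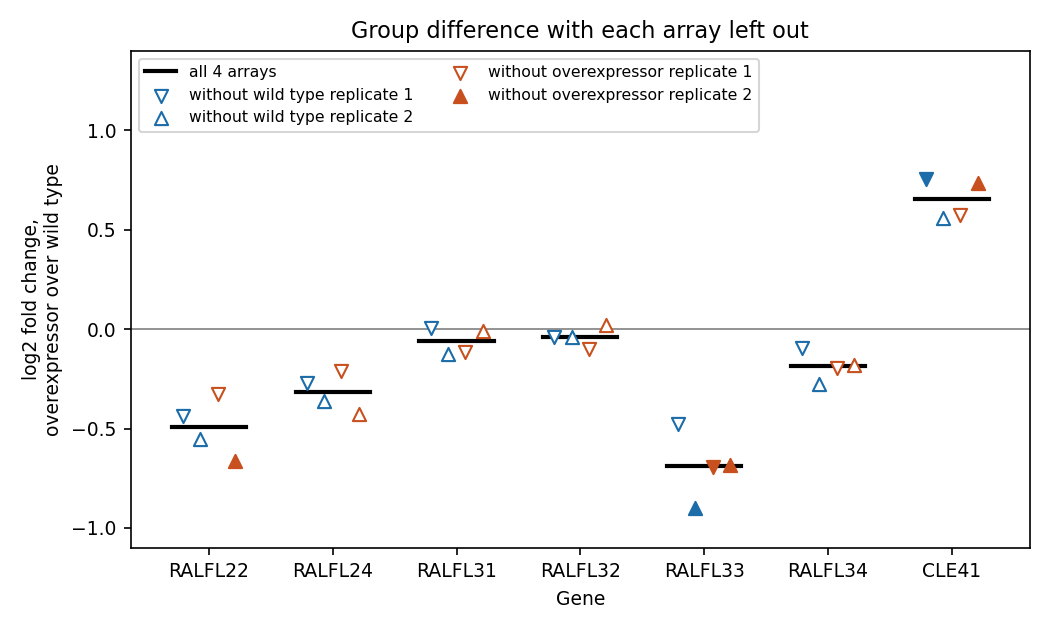
log2 fold change, overexpressor over wild type, of the 7 tested genes with all 4 arrays (black line) and with each array left out (triangles, blue for a wild type array and orange for an overexpressor array). Filled triangles passed an adjusted p of 0.05. RALFL33 lies between -0.90 and -0.48 and CLE41 between 0.56 and 0.75, and RALFL31 and RALFL32 lie on both sides of 0.

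The 10 dim genes were 5 RALF and 5 CLE genes. With no filter on low signals, where 1 of 22746 probe sets passed limma's test, 0 of the 17 members passed. An unadjusted p under 0.05 was found for 6 of the 17, 4 of them among the 7 tested above, and for 12.1% of all probe sets in that fit. The groups did not overlap for 4 of the 10 dim genes, against 34.8% of all probe sets below a mean signal of 100. These 4 were CLE26, CLE27, CLE21 and RALFL25.

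CLE26 (AT1G69970) encodes a peptide that impairs protophloem formation when it is applied to roots. Its signal was 49 and 17.8 in wild type and 89.8 and 113.5 on the overexpressor arrays, so that it came above 100 on 1 array. The log2 fold change with no filter was 0.88 ± 0.23 (SE, limma, adjusted p = 0.27). CLE27 (AT3G25905) was at 55.2 and 54.8 in wild type and at 29 and 20.7 on the overexpressor arrays, with a log2 fold change of -0.49 ± 0.16 (limma, adjusted p = 0.33). CLE21 (AT5G64800) was at 13.2 and 27.4 in wild type and at 45.9 and 33.2 on the overexpressor arrays. The nearest arrays of its groups lay closer together than the replicates of either group. The group means, 20.3 and 39.55, lay further apart than those replicates.

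CLE40 (AT5G12990), whose peptide restrains stem cells of the root tip through the receptor kinase ACR4, was at 21.5 and 27.9 in wild type and at 31.3 and 11.1 on the overexpressor arrays. The overexpressor replicates lay on either side of both wild type arrays. RALFL27 (AT3G29780) was at 71.4 and 87.2 in wild type and at 83.7 and 61.3 on the overexpressor arrays, and its groups overlapped. RALFL25 (AT3G25165) and RALFL26 (AT3G25170) are neighbours on chromosome 3 with 0 protein-coding genes between them in the TAIR10.1 gene table.

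RALFL25 was at 9.5 and 18.6 in wild type and at 2.8 and 2.4 on the overexpressor arrays. RALFL26 was at 7.9 and 23.5 in wild type and at 3.7 and 20.1 on the overexpressor arrays. In RALFL26 the replicates of each group differed more than the group means did. RALFL18 (AT2G33130) ran from 2.7 to 21.1, and RALFL28 (AT4G11510) from 1.4 to 17.9, and their groups overlapped. At such signals, near that of the TrpnX control, no fold change is given.

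Receptors, partners and downstream genes of both peptide families were read from lists written by locus from textbook knowledge. By the platform annotation, 21 of 52 listed genes had a probe set of their own, and 10 were tested. That annotation names 1 gene for 13513 of 22810 probe sets. The other listed genes may thus have probe sets on the array that it does not name, and they were not analysed here. In limma's test 0 of the 10 passed, and 2, FER and LRX10, were under 0.05 before adjustment, against 16.5% of all tested probe sets. Their median log2 fold change was -0.06.

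FER (AT3G51550), the FERONIA receptor kinase that binds RALF peptides, was at 3642 and 3671 in wild type, and at 2966 and 2978 on the overexpressor arrays. The replicates of each group nearly coincided and the groups did not overlap. The log2 fold change of -0.29 ± 0.09 (SE from limma, n = 2) did not pass (limma, adjusted p = 0.12). That SE draws on the spread of other probe sets too, and is wider than FER's own replicates would give. THE1 (AT5G54380), the receptor of the RALFL34 peptide, was at 1162 and 1028 in wild type and at 1138 and 1028 on the overexpressor arrays, and its groups overlapped (log2 fold change -0.01 ± 0.11). CVY1 (AT2G39360), another kinase of the family, had a log2 fold change of -0.24 ± 0.15 (limma, adjusted p = 0.46).

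The receptors and extensins known from pollen and pollen tubes, LRX10 excepted, gave low signals in these seedlings. ANX1 and ANX2, which keep pollen tubes intact, ran from 1.9 to 20 over the 4 arrays, and their partners BUPS1 and BUPS2 from 1.0 to 25.9. The pollen extensins LRX8, LRX9 and LRX11 ran from 1.4 to 31.7. LRX10 (AT2G15880), which is also known from pollen, was at 287.8 and 264.4 in wild type and at 208.5 and 108.4 on the overexpressor arrays. Its log2 fold change of -0.69 ± 0.21 did not pass (limma, adjusted p = 0.13), and it was -1.04 and passed without overexpressor replicate 1 (adjusted p = 0.0023) and -0.33 without overexpressor replicate 2.

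LRX4, a vegetative extensin of the wall, had a log2 fold change of -0.06 ± 0.24, and LRX5, another, was below the level for a test, at 76.9 to 123.5. S1P (AT5G19660), the protease that cuts RALF precursors, was at 356.9 and 360.7 in wild type and at 358.3 and 330.2 on the overexpressor arrays, with a log2 fold change of -0.05 ± 0.12. MRI, a kinase that acts after ANX1 and ANX2, had -0.20 ± 0.22. EFR, an immune receptor whose complex formation RALF peptides can affect, was below the level for a test, at 27.2 to 71.5.

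On the CLE side, PXY, the receptor of the CLE41 peptide, was not analysed here, while its relatives PXL1 and PXL2 had log2 fold changes of -0.05 ± 0.17 and 0.19 ± 0.19. ACR4, a receptor of the CLE40 peptide, was just below the level for a test, at 73.4 to 122.3. POL (AT2G46920), a phosphatase that acts after the CLAVATA receptors, was at 246.9 and 278.9 in wild type and at 334.5 and 293.9 on the overexpressor arrays. Its groups did not overlap, and its log2 fold change of 0.22 ± 0.14 did not pass (limma, adjusted p = 0.46). CLV3 (AT2G27250), the CLE-type ligand of the shoot stem cells, whose symbol puts it outside the 17, was at 2.1 and 3.5 in wild type and at 23.9 and 24.2 on the overexpressor arrays. The groups did not overlap, but the wild type signals lay within the range of the TrpnX control, so no fold change is given.

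**Figure D4:**
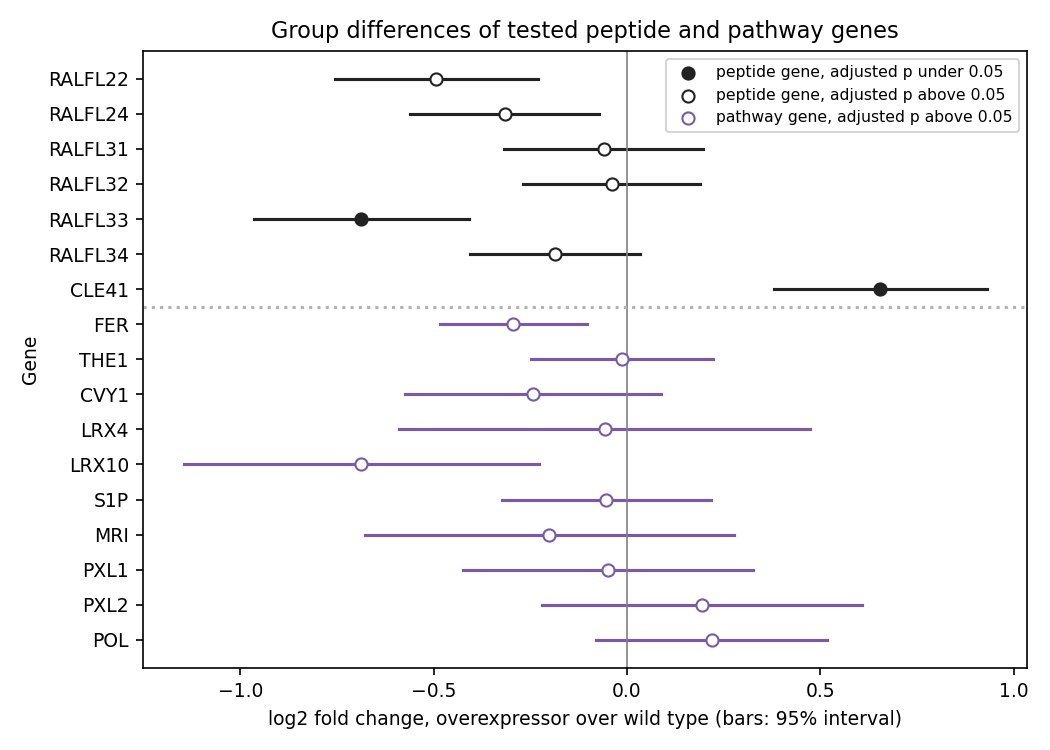
log2 fold change, overexpressor over wild type, with its 95% interval from limma, for the 7 tested peptide genes (black) and the 10 tested pathway genes (purple). Filled points passed an adjusted p of 0.05, which RALFL33 at -0.69 and CLE41 at 0.65 did and 0 of the 10 pathway genes did.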

How the data were processed

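Each array holds biotin-labelled total RNA of seedlings, with 2 arrays per group and groups and replicate numbers taken from the sample titles. The deposited values are linear array intensities: they come from MAS5, per the submitters' processing notes, with a global target signal of 500, per the labels. The version of MAS5 is not given in the sources used here, and no detection calls were used. Gene names came from the platform annotation. Of the 17 members, 15 matched the TAIR10.1 gene table by gene ID and 2 by symbol, and 0 carry a suffix for shared probes. Cross-hybridisation between related genes was not measured.

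For the test, signals plus 50 were put on the log2 scale without the 64 control probe sets, and 13961 probe sets whose mean signal reached 100 were fitted with limma 3.58.1 in R 4.3.3 (group term, intensity trend in the prior, two-sided, Benjamini-Hochberg over all of them, threshold 0.05). Fold changes on this scale understate those of dim probe sets. With 2 arrays a group the smallest p of an exact permutation test is 0.333, so none was run. No label says that replicates came from separate cultures, so p-values reflect the spread of these samples alone, possibly a technical one. Alternatives were other pseudocounts, filters, normalizations and variance priors, a block for the replicate number, leaving out each array, and unshared probe sets naming 1 gene. All members with a probe set were named, and every pathway gene with one was read. The members and lists were chosen with earlier results of these data known.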

Additional observations from a re-analysis of the deposited data

How the results depend on the processing

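Over all tested probe sets 180 passed, but 1 with no filter on low signals, 9 with a constant variance prior, 56 among unshared probe sets naming 1 gene (7469 tested), 1075 with the replicate number as a block, and 101 to 489 with 1 array left out. Of the members 2 passed, but 0 with no filter (6 of 17 at an unadjusted p under 0.05 in limma, against 12.1% of all probe sets) and 0 with a constant prior (4 of 7 at an unadjusted p under 0.05, against 15.2%), and 1 to 3 with 1 array left out. Their median log2 fold change was -0.28 to -0.10 with 1 array left out. Of the pathway genes 0 passed, but 2 (FER and LRX10) with the replicate block and 0 to 1 with 1 array left out. Under the replicate block RALFL22 also passed (limma, adjusted p = 0.00030), beside RALFL33 and CLE41, and the block changed no other call of a member or pathway gene. With a block, 4 arrays leave little information on each probe set's own spread. The p-values of that fit thus rest mostly on the variance prior over all probe sets. The deviations of same-numbered arrays correlated at 0.06, and no label says that a number marks a shared batch or day, so the arrays were not treated as pairs. Whether they share one was not settled. RALFL33 passed in 12 and CLE41 in 11 of 15 alternatives, and RALFL22 in 2, all with the main direction, which the non-overlap of the groups fixes where an array is left out. At a mean signal of 50 in place of 100, 10 members counted as expressed, and 7 at 200, at 250 and with the lowest array at 100. Of 250 values for 17 tested genes, 238 kept their side of the threshold. Most of these genes passed in no setting, so that share says little about the called genes. All calls that were lost were of RALFL33 and CLE41. With 1 array left out, the lone array is assumed to vary like the other group. The number of arrays limits all of these results, and for RALFL18, RALFL25, RALFL26 and RALFL28 so do signals near the TrpnX control. CLE21 in wild type replicate 1 (13.2) and CLE40 on overexpressor replicate 2 (11.1) lay within that control's range too.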
